A study of Mus musculus with 24 samples.

Results

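Notchless, encoded by Nle1, was deleted in crypts of mouse jejunum with Apc intact, and RNA was compared 24 h after induction. The comparison takes 6 of the 24 libraries of the series: 3 NlecKO mice against 3 Control mice on day 1, chosen by their genotype and time labels. NlecKO is a conditional Nle1 knockout and Control is its reference genotype. The mice of both groups were 5 to 10 weeks old and had received tamoxifen at 56 mg/kg into the peritoneum on 3 days, so the drug is shared. Crypts came from 5 to 10 cm of jejunum, polyadenylated RNA was sequenced, and each library is 1 mouse, per the series design. The sources used here name neither the recombinase and the cells in which it acts nor the alleles of the Control mice. Other mice serve below for comparison: NlecKO and Control on day 2 (48 h), and on day 1 the double knockout of Apc and Nle1 against the Apc knockout (ApccKO), with 3 mice per group.

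Notchless is a nucleolar protein that takes part in the last assembly steps of the large ribosomal subunit before it leaves the nucleus. When large subunit assembly is disturbed, free ribosomal proteins are known to bind the ubiquitin ligase Mdm2, which then no longer removes the tumour suppressor p53. In the crypt, stem cells at the base feed a zone of rapid division, from which absorptive enterocytes and secretory cells move up to the villus. The transcription factor p53 is known there for switching on genes of cell cycle arrest and of cell death.

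The 6 libraries held 18.54 to 21.49 M estimated counts, against 17.86 to 26.47 M over all 24, and 16552 of 37620 genes were tested. Values of a gene are given in CPM, its counts scaled by library size with TMM, and differences as log2 fold changes of NlecKO over Control with their standard error (SE) from edgeR. A gene is called where its adjusted p is under 0.05 in a fit to all 24 libraries. The first principal component of the 6 libraries held 36.8% of the variance. On it NlecKO mice 1, 2 and 3 lay at -41.9, -11.5 and -9.9, and Control mice 1, 2 and 3 at -10.5, 28.2 and 45.5, so Control mouse 1 lay among the NlecKO mice. Y-linked genes marked NlecKO mouse 1 and Control mouse 1 as male and the other 4 mice as female. Stem cell markers of the crypt base summed to 2423 to 2742 CPM in NlecKO and 2804 to 3754 CPM in Control crypts, and Paneth cell markers to 9056 to 12229 CPM and 9508 to 17372 CPM. Enterocyte markers summed to 47789 to 69742 CPM in NlecKO and 21310 to 48993 CPM in Control crypts, so the preparations held RNA of absorptive cells besides that of the crypt base. The lists differ in their genes, so these sums do not measure the share of RNA from each cell type.

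Nle1 itself (ENSMUSG00000020692) was read first. It stood at 5.34, 6.46 and 4.81 CPM in NlecKO mice and 22.5, 24.4 and 27.6 CPM in Control mice. The groups lay far apart, with a log2 change of -2.16 ± 0.17 (adjusted p = 8.7e-07) and a fitted ratio of 0.22. Apc (ENSMUSG00000005871), intact in both groups, had 158, 138 and 143 CPM in NlecKO against 131, 127 and 131 CPM in Control crypts and did not pass (0.18 ± 0.08, adjusted p = 0.26).

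In all, 411 genes (2.48% of those tested) were called on day 1, 144 higher (0.87%) and 267 lower (1.61%) in NlecKO crypts. The higher genes had a median log2 change of 0.76, or 1.69-fold, and the lower ones of -0.58, or 1.49-fold. Changes of at least 2-fold were found for 49 of the higher and 14 of the lower genes. The changes over all tested genes had a median of -0.00, with 49.3% of genes positive. In the same edgeR fit 2832 of the 16552 tested genes had an unadjusted p under 0.05, both directions together. The higher genes held 8, 7 and 6 members of 3 lists of p53 targets, for arrest, death and metabolism, and the lower genes held 27 of DNA replication, 12 of mitosis and 11 of recombination. All lists were chosen with earlier results of these data known, so the share of a list that was called describes it and is no separate test.

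The number of calls moved with the libraries fitted. Fits without 1 of the 6 libraries called between 31 (without Control mouse 3) and 1189 genes (without Control mouse 1), and those without Control mouse 2 or NlecKO mouse 1, 2 or 3 called 49, 130, 126 and 52. With only the 12 Apc-intact libraries 9 genes were called, and with only the 6 libraries 21. Each of the 411 genes kept its sign, with an unadjusted p under 0.05, in each of these fits. So did the 408 of them that remained testable under a filter of 2 CPM in 3 libraries. These fits reuse libraries in which the 411 genes were chosen, so the kept signs are no separate check of them.

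**Figure D1:**
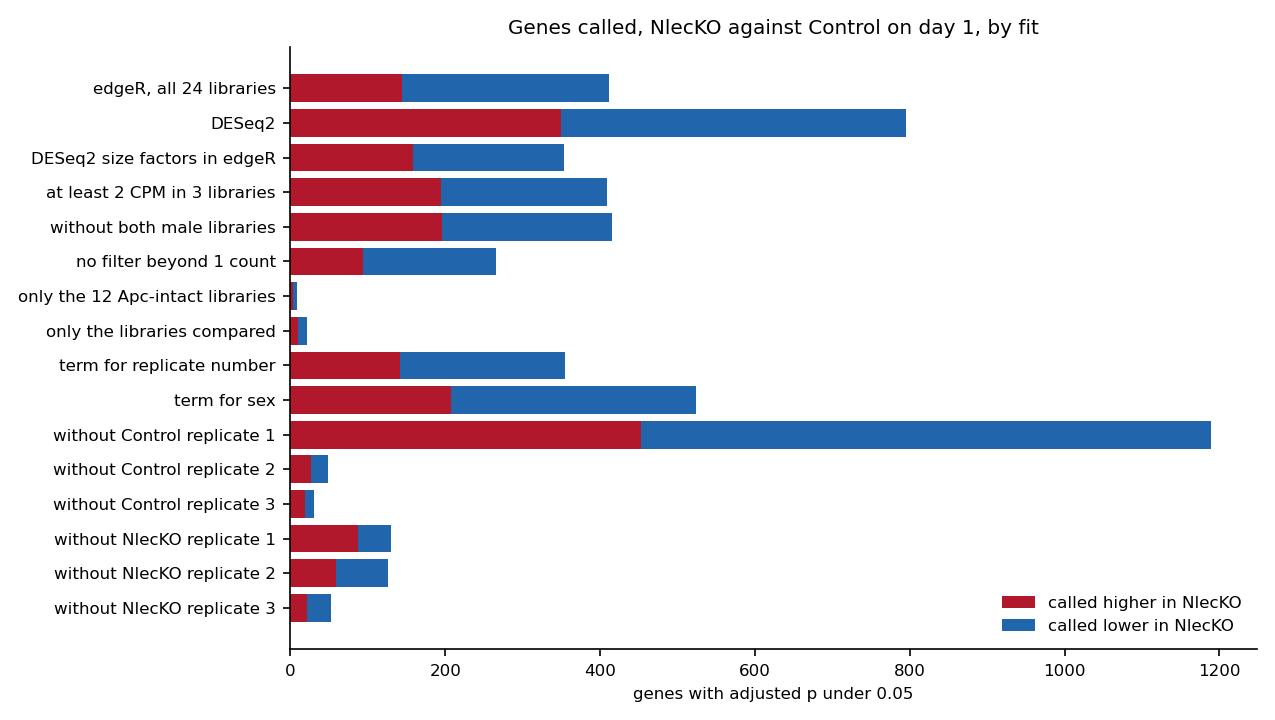
Number of genes with an adjusted p under 0.05 for NlecKO against Control on day 1 (horizontal axis) in each fit (vertical axis), with genes higher and lower in NlecKO as stacked bars. The count was 411 with all 24 libraries and ran from 9 to 1189 over the other fits.

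Several genes of p53-dependent arrest and feedback rose. Of 17 tested, 8 were higher (47.1%, against 0.87% of all genes) and 0 lower (0 also at unadjusted p under 0.05 or with DESeq2), and their median log2 change was 0.63. Cdkn1a (ENSMUSG00000023067), which encodes the cyclin-dependent kinase inhibitor p21, had 310, 380 and 417 CPM in NlecKO and 164, 153 and 133 CPM in Control crypts. The lowest NlecKO mouse was far above the highest Control mouse, and the log2 change was 1.30 ± 0.21 (adjusted p = 0.0058). Ccng1 (ENSMUSG00000020326), the cyclin G1 gene, had 288, 323 and 405 CPM in NlecKO against 119, 172 and 163 CPM in Control crypts (1.16 ± 0.18, adjusted p = 0.0043). Zmat3 (ENSMUSG00000027663), for an RNA-binding zinc finger protein, had 83.6, 122 and 140 CPM against 34.5, 44.6 and 42.2 CPM in Control crypts (1.51 ± 0.20, adjusted p = 0.0012). In these genes no NlecKO mouse overlapped a Control mouse. Phlda3 (ENSMUSG00000041801), a restraint on Akt, rose most in the list, to 35.7, 80.8 and 87.6 CPM in NlecKO against 7.49, 16.9 and 15.6 CPM in Control crypts (2.35 ± 0.38, adjusted p = 0.007). NlecKO mouse 1 and Control mouse 1, the males, were the lowest of their groups for Phlda3, Zmat3 and Ccng1.

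The remaining called genes of this list were the kinase gene Plk2 (1.90 ± 0.34, adjusted p = 0.011), Sesn2, whose product restrains mTORC1 (1.31 ± 0.22, adjusted p = 0.0069), Mdm2 (0.87 ± 0.18, adjusted p = 0.017) and the antiproliferative gene Btg2 (0.59 ± 0.13, adjusted p = 0.022). Mdm2, the ligase that marks p53 for degradation and is itself a p53 target, stood at 92.3, 95.8 and 115 CPM in NlecKO against 52.2, 63 and 50.6 CPM in Control crypts. Trp53, the gene for p53, did not pass, with 72.1, 107 and 105 CPM in NlecKO and 95, 101 and 113 CPM in Control crypts (-0.12 ± 0.13, adjusted p = 0.67). Sesn1 (0.21 ± 0.31, adjusted p = 0.76) and Trp53inp1 (0.63 ± 0.28, adjusted p = 0.26) did not pass either. The groups overlapped for Trp53 and Sesn1 and stood apart for Trp53inp1, as they did, NlecKO above, in 9.61% of all tested genes. Of the 17 genes, 5 were called without Control mouse 3 or NlecKO mouse 3, and 7 to 9 without any other of the 6 libraries.

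Of 14 p53-dependent death genes, 7 were higher (50%, against 0.87% of all genes), with a median log2 change of 0.63. The number lower was 0, also at unadjusted p under 0.05 or with DESeq2. Bax (ENSMUSG00000003873), which opens the mitochondrial outer membrane, had 144, 199 and 206 CPM in NlecKO and 87.3, 98.1 and 106 CPM in Control crypts (0.91 ± 0.16, adjusted p = 0.007). Eda2r, a receptor of the TNF family for ectodysplasin A2, had 30.3, 40.3 and 41.6 CPM in NlecKO against 7.54, 15.2 and 11.3 CPM in Control crypts (1.72 ± 0.28, adjusted p = 0.0069). Bbc3, which encodes Puma, had 21, 36.8 and 36.7 CPM in NlecKO against 12.6, 13.1 and 12 CPM in Control crypts (1.33 ± 0.26, adjusted p = 0.015). In all 3 genes the groups stood apart, and NlecKO mouse 1 was the lowest NlecKO mouse in each. Smaller rises were those of Siva1 (0.80 ± 0.20, adjusted p = 0.042), the TRAIL receptor gene Tnfrsf10b (0.64 ± 0.13, adjusted p = 0.016), Apaf1 of the apoptosome (0.45 ± 0.09, adjusted p = 0.017) and Ei24 (0.44 ± 0.07, adjusted p = 0.0069). The death receptor gene Fas (0.81 ± 0.25, adjusted p = 0.093), Pmaip1 for Noxa (0.61 ± 0.23, adjusted p = 0.16) and Perp (0.33 ± 0.13, adjusted p = 0.19) did not pass. Their groups did not overlap, a separation that 9.61% of all tested genes showed in this direction. Without Control mouse 2 or 3 or NlecKO mouse 3, 3 of the 14 genes were called, and without the others 5 to 8.

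Among 20 p53 targets of metabolism and repair, 6 were higher (30%, against 0.87% of all genes), with a median of 0.39. The number lower was 0 (2 lower at unadjusted p under 0.05, 1 lower with DESeq2). Ephx1, the microsomal epoxide hydrolase gene, had 185, 177 and 223 CPM in NlecKO against 77.2, 83.4 and 72.8 CPM in Control crypts (1.32 ± 0.15, adjusted p = 0.00026). Dcxr, a xylulose reductase gene, had 47.3, 47.2 and 52.9 CPM in NlecKO against 29.2, 26.5 and 22.7 CPM in Control crypts (0.91 ± 0.14, adjusted p = 0.0043). In these genes NlecKO mouse 1 was level with the other NlecKO mice. Abcb1b, a P-glycoprotein drug pump, rose (1.83 ± 0.35, adjusted p = 0.014), as did the stress cytokine gene Gdf15 (1.90 ± 0.37, adjusted p = 0.016) and Polk, the gene of a polymerase that copies damaged DNA (0.69 ± 0.17, adjusted p = 0.032). Zfp365 rose on few counts, to 2.2, 8.28 and 9.31 CPM in NlecKO against 0.328, 1.26 and 1.08 CPM in Control crypts (2.88 ± 0.63, adjusted p = 0.025). Ddb2, a damage sensor gene, did not pass and was lower in each NlecKO mouse, at 6.96, 7.94 and 6.69 CPM in NlecKO and 8.85, 8.59 and 9.79 CPM in Control crypts (-0.33 ± 0.15, adjusted p = 0.24). The count of 6 was 2 without Control mouse 2 or 3 or NlecKO mouse 3, 3 without NlecKO mouse 2 and 6 without NlecKO mouse 1 or Control mouse 1.

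**Figure D2:**
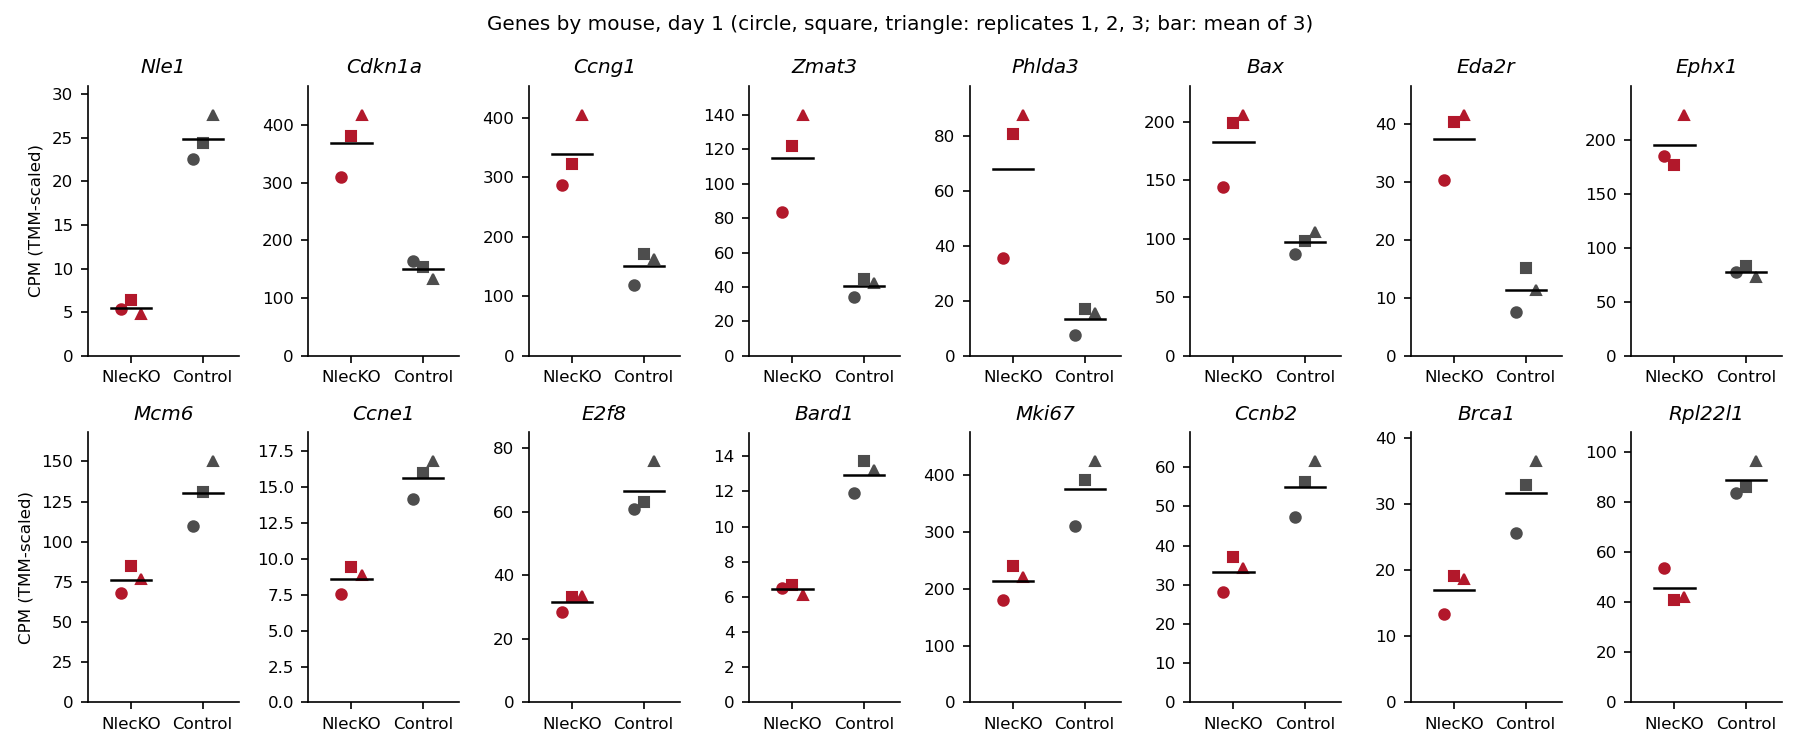
CPM of 16 genes (vertical axes, each from 0) in each NlecKO and Control mouse on day 1, with a bar at the mean of 3 mice. In each gene shown the groups do not overlap; the first row holds Nle1 and p53 targets and the second holds genes that were lower in NlecKO crypts.

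The promoters of the called genes were searched for motifs of the factors that act on these gene groups. They were taken from RefSeq (GRCm38.p6) as 250 bases before to 50 after each annotated start, and 12110 of the 16552 tested genes matched 15397 windows. The p53 response element, a pair of decamers without spacer, was searched with at most 2 mismatches and with none in the core C and G of each decamer. It was found in 2.76% of the 145 windows of higher genes, 0.389% of the 257 windows of lower genes and 0.377% of all windows, so it was rare in this window everywhere. The match among lower genes was in Cdc6, a loader of the replicative helicase. Cdkn1a and Ccng1, both higher, hold a match, which begins 51 bases before the start of Cdkn1a (strand +, chr17:29090729-29091028, 1 of 2 annotated starts) and 195 before that of Ccng1 (strand -, chr11:40755237-40755536). Both are shown because they are the called arrest genes with a match, and capitals mark the element.
Cdkn1a: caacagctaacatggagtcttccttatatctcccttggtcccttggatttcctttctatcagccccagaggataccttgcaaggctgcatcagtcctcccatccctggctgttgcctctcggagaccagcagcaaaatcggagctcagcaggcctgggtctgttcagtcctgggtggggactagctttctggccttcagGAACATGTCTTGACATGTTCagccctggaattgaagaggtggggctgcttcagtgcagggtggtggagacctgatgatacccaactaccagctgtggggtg
Ccng1: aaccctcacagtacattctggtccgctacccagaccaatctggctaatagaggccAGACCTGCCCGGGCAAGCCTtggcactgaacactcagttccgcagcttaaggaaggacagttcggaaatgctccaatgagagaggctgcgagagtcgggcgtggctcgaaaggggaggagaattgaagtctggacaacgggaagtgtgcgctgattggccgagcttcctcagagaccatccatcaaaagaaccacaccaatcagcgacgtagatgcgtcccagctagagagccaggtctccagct
A match is a run of letters, not a bound site.

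Many genes of DNA replication fell. Of 49 tested, 27 were lower (55.1%, against 1.61% of all genes) and 0 higher (0 also at unadjusted p under 0.05 or with DESeq2), with a median of -0.59. Each of the 49 had a negative change, from -0.90 to -0.28. For 41 of them each NlecKO mouse lay below each Control mouse, a separation that 11.5% of all tested genes showed in this direction and 9.61% in the other. Summed over its genes, the list stood at 1550, 1883 and 1839 CPM in NlecKO mice and 2264, 2578 and 2961 CPM in Control mice, without overlap. The number of calls in this list moved with the mice of both groups. Without Control mouse 1 it was 44, without Control mouse 2 it was 3 and without Control mouse 3 it was 0. Without NlecKO mouse 1, 2 or 3 it was 4, 9 and 4.

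The MCM helicase, which unwinds DNA at the fork, was lowered in most of its subunits. Mcm6 (ENSMUSG00000026355) had 68.1, 84.8 and 76.6 CPM in NlecKO and 110, 131 and 150 CPM in Control crypts (-0.77 ± 0.15, adjusted p = 0.014). Mcm7 (-0.69 ± 0.14, adjusted p = 0.018), Mcm5 (-0.68 ± 0.16, adjusted p = 0.032), Mcm4 (-0.65 ± 0.14, adjusted p = 0.023) and Mcm3 (-0.58 ± 0.15, adjusted p = 0.049) fell by like amounts, and Mcm2 did not pass (-0.48 ± 0.15, adjusted p = 0.1). The loaders and partners of the helicase fell too, among them Cdc6 (-0.88 ± 0.18, adjusted p = 0.018), Gins2 (-0.68 ± 0.13, adjusted p = 0.013) and Gins1 (-0.68 ± 0.15, adjusted p = 0.023). Geminin, the inhibitor of helicase loading encoded by Gmnn, fell as well (-0.60 ± 0.12, adjusted p = 0.015), and Cdt1, the loading factor it binds, did not pass (-0.28 ± 0.15, adjusted p = 0.34).

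Ccne1 (ENSMUSG00000002068), the cyclin E1 that drives entry into S phase, had 7.54, 9.47 and 8.89 CPM in NlecKO and 14.2, 16 and 16.8 CPM in Control crypts (-0.86 ± 0.15, adjusted p = 0.007). Its groups stood apart, while those of Ccne2, which did not pass, overlapped (-0.64 ± 0.20, adjusted p = 0.092). Uhrf1, which carries DNA methylation through replication, had 51.3, 68.4 and 64.2 CPM in NlecKO against 99, 110 and 135 CPM in Control crypts (-0.90 ± 0.16, adjusted p = 0.011). Genes of the synthesis machinery fell likewise: Lig1, the ligase that joins Okazaki fragments (-0.77 ± 0.16, adjusted p = 0.018), the flap nuclease gene Fen1 (-0.78 ± 0.17, adjusted p = 0.024), Pole of the leading-strand polymerase (-0.62 ± 0.16, adjusted p = 0.04) and the primase gene Prim1 (-0.53 ± 0.13, adjusted p = 0.035). Chaf1b, for a chaperone that places histones behind the fork (-0.88 ± 0.20, adjusted p = 0.025), Clspn of the fork checkpoint (-0.77 ± 0.15, adjusted p = 0.012), Dtl (-0.70 ± 0.15, adjusted p = 0.023) and Wdhd1 (-0.59 ± 0.12, adjusted p = 0.015) were also lower. Pcna, the sliding clamp and a known p53 target in addition, did not pass, with 129, 99.7 and 116 CPM in NlecKO and 131, 140 and 153 CPM in Control crypts (-0.30 ± 0.13, adjusted p = 0.21). Outside the list, Chtf18 of an alternative clamp loader (-0.91 ± 0.17, adjusted p = 0.011) and the cohesin acetyltransferase gene Esco2 (-0.90 ± 0.19, adjusted p = 0.018) were lower. They belong to the 10 most lowered called genes once those averaging under 5 CPM, those with overlapping groups and those with provisional symbols were set aside.

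Nucleotide synthesis fell in part. Of 20 genes, 3 were lower (15%, against 1.61% of all genes) and 0 higher (0 also at unadjusted p under 0.05 or with DESeq2). Each of 20 had a negative change, and the median was -0.31. The called genes all make or guard thymidine nucleotides: Tk1 for thymidine kinase (-0.82 ± 0.18, adjusted p = 0.024), Tyms for thymidylate synthase (-0.53 ± 0.12, adjusted p = 0.024) and Dut for dUTPase (-0.57 ± 0.15, adjusted p = 0.048). The ribonucleotide reductase genes Rrm1 (-0.56 ± 0.16, adjusted p = 0.065) and Rrm2 (-0.58 ± 0.18, adjusted p = 0.1) did not pass. Without Control mouse 1 the list had 7 calls, and without any other of the 6 libraries 0.

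Among 30 E2F factors, pocket proteins and G1 regulators, 6 were lower (20%, against 1.61% of all genes), with a median of -0.26. The number higher was 0, also at unadjusted p under 0.05 or with DESeq2. E2f8 (ENSMUSG00000046179), an atypical E2F that represses E2F targets, had 28.4, 33.2 and 33.4 CPM in NlecKO and 60.8, 63.1 and 75.9 CPM in Control crypts (-1.07 ± 0.16, adjusted p = 0.0043). The E2F genes E2f2 (-0.63 ± 0.16, adjusted p = 0.045) and E2f6 (-0.40 ± 0.10, adjusted p = 0.041), the kinase gene Cdk2 (-0.52 ± 0.12, adjusted p = 0.029), the kinase inhibitor gene Cdkn2c (-0.85 ± 0.19, adjusted p = 0.027) and Lin54, of the complex that binds CHR elements (-0.38 ± 0.10, adjusted p = 0.045), fell as well. E2f1 (-0.70 ± 0.20, adjusted p = 0.069) and the other atypical factor, E2f7 (-0.47 ± 0.16, adjusted p = 0.13), did not pass. Without Control mouse 1, 10 genes of the list were called, and without any other of the 6 libraries 1.

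Mitosis and division genes had negative changes throughout, with fewer calls. Of 46 tested, 12 were lower (26.1%, against 1.61% of all genes) and 0 higher (0 also at unadjusted p under 0.05 or with DESeq2). Each of 46 had a negative change, and the median was -0.58. The groups stood apart, NlecKO below, in 32 of them, against 11.5% of all tested genes. Mki67 (ENSMUSG00000031004), for the proliferation antigen Ki-67, had 180, 240 and 220 CPM in NlecKO against 310, 392 and 424 CPM in Control crypts (-0.81 ± 0.16, adjusted p = 0.015). Racgap1 of cytokinesis (-0.74 ± 0.16, adjusted p = 0.023), the cyclin genes Ccnb2 (-0.73 ± 0.19, adjusted p = 0.045) and Ccna2 (-0.66 ± 0.17, adjusted p = 0.043) and the condensin gene Ncapd2 (-0.69 ± 0.17, adjusted p = 0.039) fell. So did Incenp (-0.69 ± 0.15, adjusted p = 0.024) and Birc5 (-0.68 ± 0.16, adjusted p = 0.033) of the chromosomal passenger complex, and Pttg1 for securin (-0.67 ± 0.15, adjusted p = 0.021). Cdk1 (-0.60 ± 0.18, adjusted p = 0.085), Ccnb1 (-0.56 ± 0.16, adjusted p = 0.064) and Top2a (-0.61 ± 0.17, adjusted p = 0.057), which are central to mitosis, did not pass. Without Control mouse 1, 36 of the 46 were called, without NlecKO mouse 2, 4, and without any other of the 6 libraries, 0.

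Recombination and checkpoint genes held 11 lower of 35 (31.4%, against 1.61% of all genes), with a median of -0.52 and a negative change in each of 35. The number higher was 0, also at unadjusted p under 0.05 or with DESeq2. Bard1 (ENSMUSG00000026196) had 6.49, 6.7 and 6.12 CPM in NlecKO and 11.9, 13.7 and 13.2 CPM in Control crypts (-1.01 ± 0.15, adjusted p = 0.0033). Its partner Brca1 (ENSMUSG00000017146) had 13.3, 19.1 and 18.6 CPM in NlecKO against 25.6, 32.8 and 36.4 CPM in Control crypts (-0.89 ± 0.15, adjusted p = 0.006). Within each group the Bard1 values were tight, and in Brca1 the male mouse was the lowest. Fancb of the Fanconi pathway (-1.04 ± 0.22, adjusted p = 0.017), the recombination gene Rad54l (-0.93 ± 0.19, adjusted p = 0.015), the helicase gene Blm (-0.63 ± 0.16, adjusted p = 0.037), Topbp1 (-0.57 ± 0.13, adjusted p = 0.023) and the checkpoint kinase gene Atr (-0.46 ± 0.11, adjusted p = 0.029) fell. Without Control mouse 1 the count of 11 was 22, without NlecKO mouse 2 it was 4, and without any other of the 6 libraries 2.

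**Figure D3:**
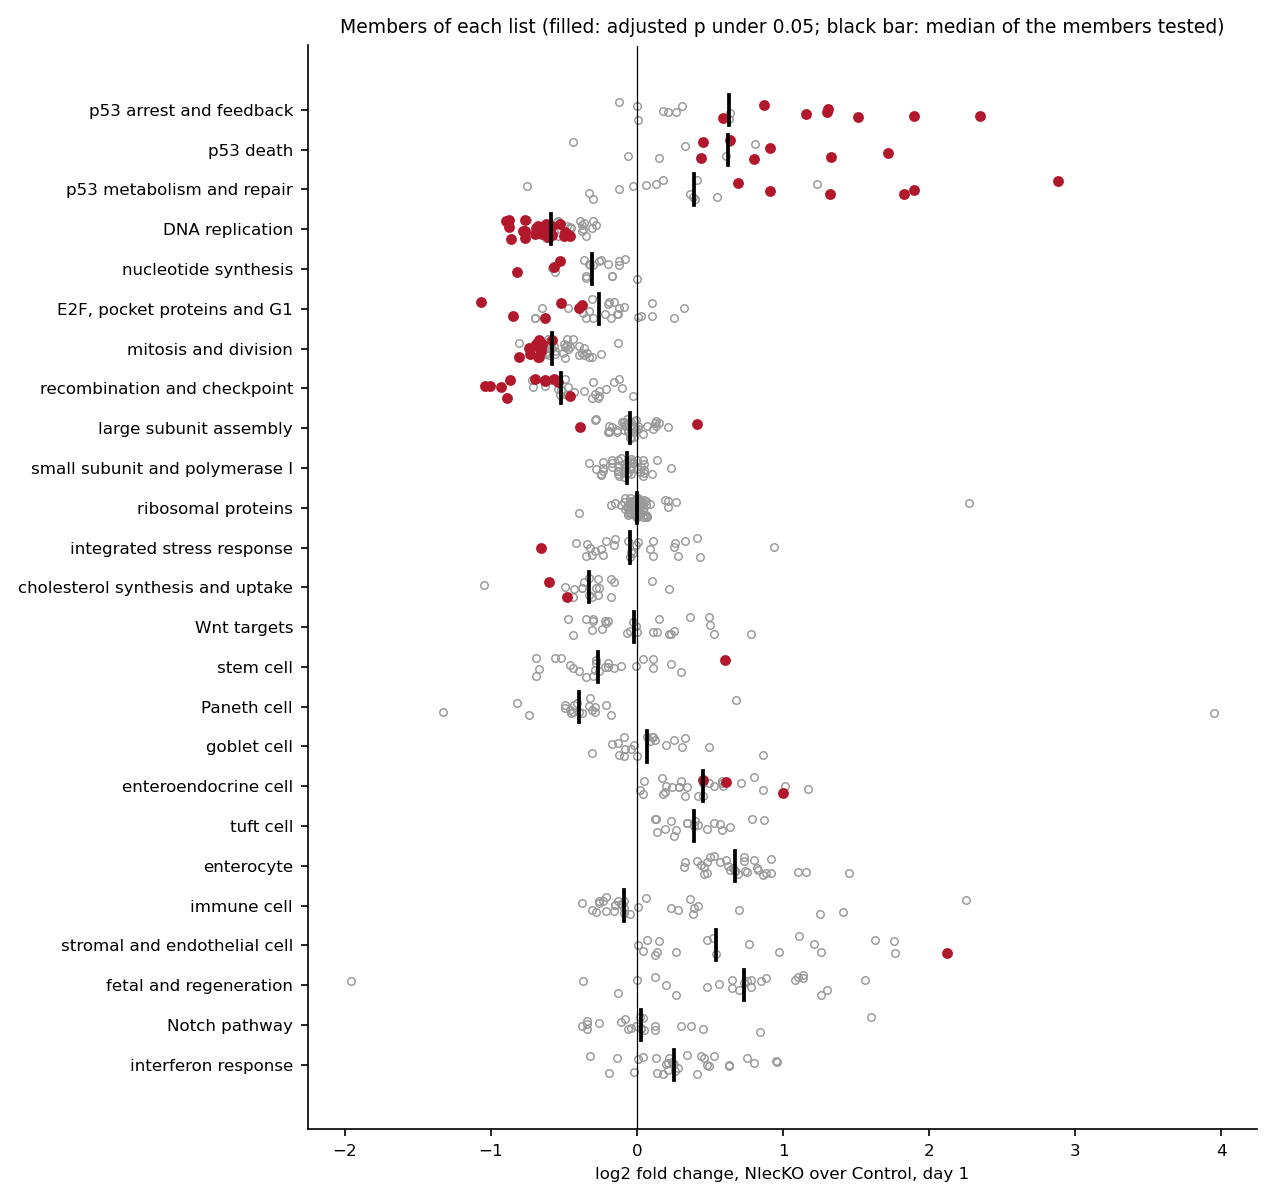
Log2 fold change of NlecKO over Control on day 1 (horizontal axis) for each tested member of 25 gene lists (rows), filled where the adjusted p was under 0.05, with a black bar at the list median. The p53 lists lie to the right of 0, with medians of 0.63, 0.63 and 0.39, and DNA replication, mitosis and recombination to the left, with medians of -0.59, -0.58 and -0.52.

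The promoters of the cell cycle genes were searched in the same way. E2F sites were searched as TTTCCCGC, TTTGGCGC, TTTCGCGC or TTTGCCGC, the cell cycle homology region (CHR) as TTTGAA, and the CCAAT box as CCAAT, on both strands. An E2F match was found in 14% of windows of lower genes, 2.76% of those of higher genes and 3.64% of all windows, and in 35.4% of the 48 windows of the DNA replication list and 23.1% of the 26 of the recombination list. A CHR match was found in 21.8% of windows of lower genes, 8.97% of higher and 12.9% of all, and in 73.2% of the 41 windows of the mitosis list and 11.5% of those of the recombination list. CCAAT was found in 53.7% of windows of lower genes, 33.1% of higher and 37.4% of all, and in 80.5% of the mitosis windows. Mcm6 and Ccnb2 are shown for their list's motif, which capitals mark. Mcm6 (strand -, chr1:128359656-128359955) has 3 E2F matches, which begin 110, 106 and 47 bases before the start, and those at 110 and 106 overlap on opposite strands. Ccnb2 (strand -, chr9:70421505-70421804) has CHR matches that begin 167 bases before and 4 after the start, and 3 CCAAT boxes, not in capitals.
Mcm6: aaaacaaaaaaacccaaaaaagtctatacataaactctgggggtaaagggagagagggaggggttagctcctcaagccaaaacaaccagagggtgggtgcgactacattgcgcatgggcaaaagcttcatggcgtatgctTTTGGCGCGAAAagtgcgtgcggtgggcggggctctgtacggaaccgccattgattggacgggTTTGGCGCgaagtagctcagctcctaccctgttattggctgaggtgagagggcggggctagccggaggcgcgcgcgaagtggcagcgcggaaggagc
Ccnb2: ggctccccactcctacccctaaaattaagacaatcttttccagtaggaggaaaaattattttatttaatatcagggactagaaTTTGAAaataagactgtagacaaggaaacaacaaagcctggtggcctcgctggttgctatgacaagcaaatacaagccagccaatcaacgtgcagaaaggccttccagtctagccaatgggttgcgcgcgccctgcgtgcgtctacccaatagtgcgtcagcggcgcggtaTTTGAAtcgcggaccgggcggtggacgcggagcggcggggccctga
The lower genes share these letters more often than all windows do, which describes the sequences and not the binding of a factor.

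The lists were then read mouse by mouse. The median member of the p53 arrest list, relative to the mean of the Controls on the log2 scale, stood at 0.60, 0.66 and 0.63 in NlecKO mice 1, 2 and 3 and at -0.07, 0.03 and 0.01 in Control mice 1, 2 and 3. For p53 death these medians were 0.40, 0.49 and 0.69 in NlecKO mice and -0.08, 0.00 and 0.03 in Control mice, and for p53 metabolism 0.21, 0.44 and 0.48 in NlecKO mice and -0.18, 0.11 and 0.07 in Control mice. None of the 3 p53 lists had overlapping groups. For DNA replication these medians were -0.81, -0.44 and -0.48 in NlecKO mice and -0.20, -0.00 and 0.18 in Control mice. For mitosis they were -0.83, -0.39 and -0.44 in NlecKO mice and -0.26, 0.04 and 0.22 in Control mice. The male mouse of each genotype was thus lowest in both cell cycle lists, as it was in p53 death and p53 metabolism. It was also the highest of its group in enterocyte markers, whose medians were 1.14, 0.58 and 0.52 in NlecKO mice and 0.63, -0.04 and -0.56 in Control mice. The part of enterocyte RNA in the p53 and cell cycle results was not tested.

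Within sex, the medians of the p53, replication, mitosis and recombination lists had the same sign in males and females. Between the 2 males the medians were 0.64 for p53 arrest, 0.49 for p53 death, -0.54 for DNA replication, -0.54 for mitosis and -0.39 for recombination. Among the 4 females they were 0.56, 0.60, -0.57, -0.57 and -0.52. The sign of the median differed between the males and the females for large subunit assembly (-0.15 and 0.01), ribosomal proteins (0.04 and -0.03), Wnt targets (-0.13 and 0.05), Notch pathway genes (-0.05 and 0.05) and immune markers (0.73 and -0.49). The male values compare 1 mouse with 1 mouse and have no replicate check.

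**Figure D4:**
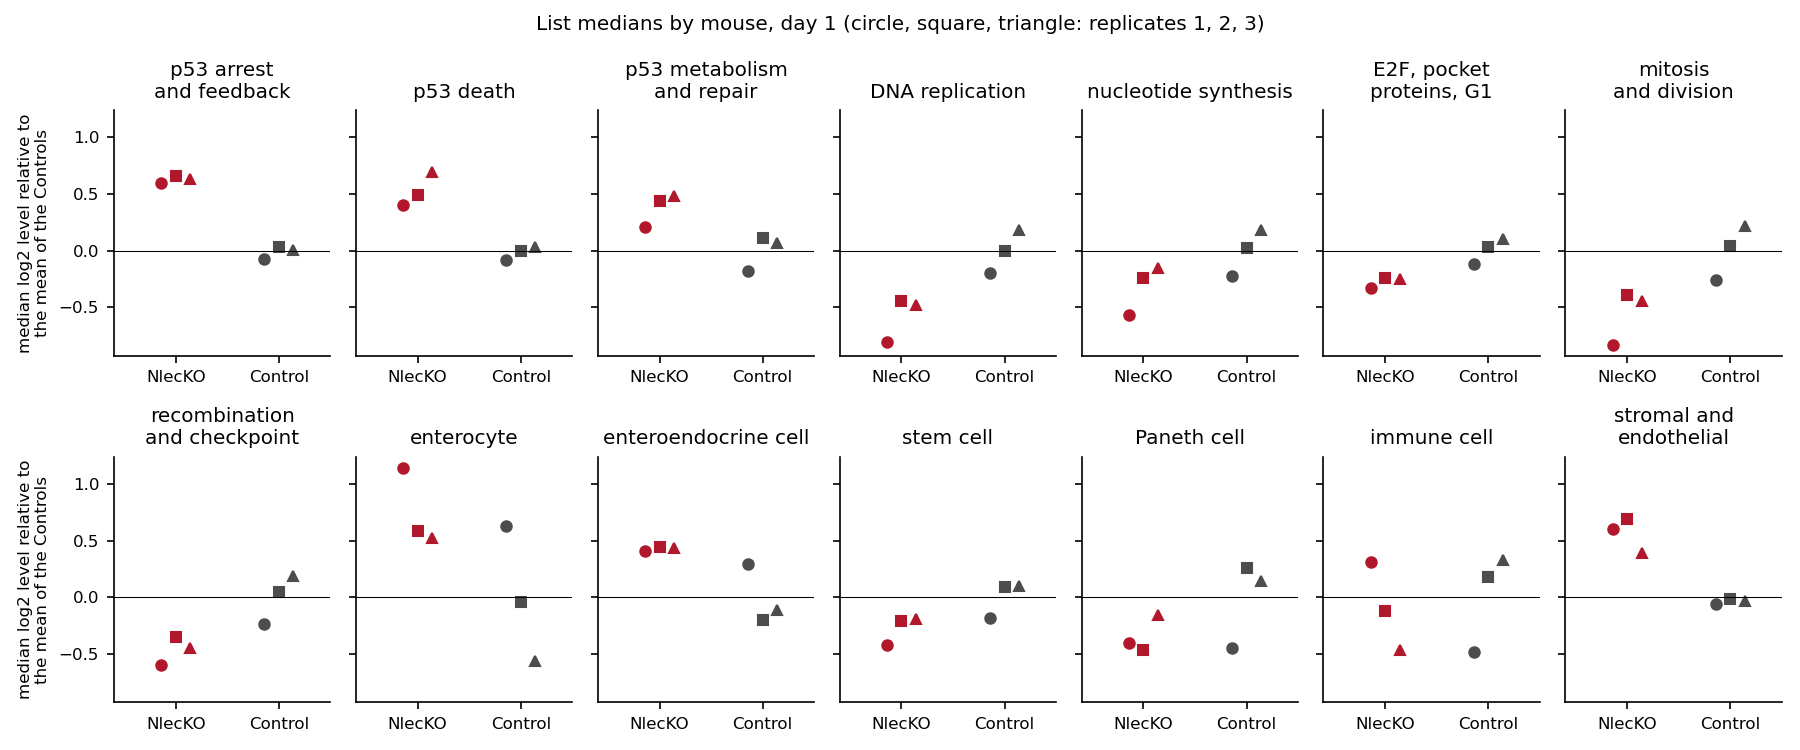
Median over the members of 14 lists of the log2 level relative to the mean of the Controls (vertical axis), for each NlecKO and Control mouse on day 1. In the p53 arrest list the Control mice lie within -0.07 to 0.03, whereas in the DNA replication list they spread from -0.20 to 0.18 and in the enterocyte list from -0.56 to 0.63.

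Apart from these lists, 117 of the 144 higher and 201 of the 267 lower genes belonged to none. Among the 10 genes raised most in the same selection, Crip2, a LIM domain gene, had 10.4, 25.2 and 27.5 CPM in NlecKO and 2.51, 3.94 and 4.23 CPM in Control crypts (2.56 ± 0.48, adjusted p = 0.014). Zfp385a, a zinc finger gene whose product is known to steer p53 to arrest targets, rose (2.21 ± 0.45, adjusted p = 0.017). Psrc1, for a spindle-associated protein, had 44.7, 73.3 and 82.1 CPM in NlecKO against 12.6, 24.2 and 20 CPM in Control crypts (1.82 ± 0.30, adjusted p = 0.0069). Gprc5a, an orphan receptor gene, rose through 1 mouse most, with 23.9, 10 and 10.4 CPM in NlecKO and 5.85, 5.31 and 3.54 CPM in Control crypts (1.59 ± 0.38, adjusted p = 0.033). The fibroblast collagen gene Col3a1 had 14.3, 10.7 and 8.42 CPM in NlecKO and 1.69, 3.17 and 2.8 CPM in Control crypts (2.12 ± 0.54, adjusted p = 0.044), and it passed in none of the 6 fits without a library (adjusted p 0.07 to 0.21).

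Rpl22l1, a paralog of a large subunit protein gene, had the smallest p after Nle1 among the 10 most lowered genes of that selection. It had 53.7, 40.9 and 42 CPM in NlecKO against 83.6, 85.9 and 96.1 CPM in Control crypts (-0.96 ± 0.11, adjusted p = 0.00026) and passed in each fit that left out a library. The gasdermin C genes, of which 3 of 4 were tested, fell together: Gsdmc4 had 6.2, 5.82 and 4.6 CPM in NlecKO and 20.6, 19.6 and 30.5 CPM in Control crypts (-2.09 ± 0.51, adjusted p = 0.04). Gsdmc2 (-2.14 ± 0.51, adjusted p = 0.036) and Gsdmc3 (-2.74 ± 0.65, adjusted p = 0.032) moved likewise. They are near-identical copies, so the split of reads between them is uncertain, and each passed without Control mouse 1 and in no other fit that left out 1 of the 6 libraries. Of 21 genes of cholesterol synthesis and uptake, 2 were lower (9.52%, against 1.61% of all genes). They were the farnesyl diphosphate synthase gene Fdps (-0.60 ± 0.13, adjusted p = 0.018) and the squalene epoxidase gene Sqle (-0.48 ± 0.12, adjusted p = 0.038). The list median was -0.33, with 19 of 21 negative. It had 1 call without Control mouse 1 or NlecKO mouse 1 and 0 without any other of the 6 libraries.

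Genes of the machinery that Notchless serves were read next. Of 42 genes of large subunit assembly, 1 was higher and 1 lower, a share of 4.76% against 2.48% of all tested genes, and the median was -0.05. Sbds, which acts in the release of the last assembly factor in the cytoplasm, had 86.8, 69.1 and 75.5 CPM in NlecKO against 58, 59.7 and 55.9 CPM in Control crypts (0.41 ± 0.10, adjusted p = 0.03). Tex10, of the complex that remodels the subunit in the nucleus, had 17.7, 19.8 and 21.7 CPM in NlecKO against 23.6, 26.5 and 27.7 CPM in Control crypts (-0.39 ± 0.09, adjusted p = 0.034). Pelp1 of the same complex (-0.29 ± 0.13, adjusted p = 0.28), Eif6, the factor released with Sbds (0.15 ± 0.09, adjusted p = 0.43), and the helicase gene Ddx51 (-0.28 ± 0.13, adjusted p = 0.27) did not pass. The list had 2 calls without Control mouse 1, 1 without NlecKO mouse 2 and 0 without any other of the 6 libraries. Of 45 genes of small subunit assembly and RNA polymerase I, 0 were called by edgeR (4 lower and 0 higher at unadjusted p under 0.05, 0 with DESeq2). Of 79 ribosomal protein genes 0 were called (0 also at unadjusted p under 0.05 or with DESeq2), and their median was -0.00. Ribosomal protein genes share reads with many processed copies, so single values are uncertain.

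Of 28 genes of the integrated stress response, 1 was lower and 0 higher, a share of 3.57% against 2.48% of all tested genes. At unadjusted p under 0.05 there were 3 each way, and with DESeq2 2 each way. The lower gene was Pck2, for the mitochondrial form of an enzyme of gluconeogenesis (-0.66 ± 0.17, adjusted p = 0.045). Without Control mouse 1 the list had 3 calls, and without any other of the 6 libraries 0. The transcription factor genes Atf4 (0.26 ± 0.09, adjusted p = 0.11), Ddit3 (0.41 ± 0.15, adjusted p = 0.15) and Atf3 (0.94 ± 0.25, adjusted p = 0.051) did not pass, and neither did the chaperone gene Hspa5 (-0.35 ± 0.10, adjusted p = 0.07).

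Marker lists of crypt and other cell types mostly did not pass gene by gene, and in bulk RNA fewer cells of a type and less of its RNA per cell cannot be told apart. Over all tested genes 2.48% were called, and 2832 of 16552 had an unadjusted p under 0.05 in either direction. The counts at that threshold here and below are to be read beside this. Of 29 enteroendocrine markers, 3 were higher (10.3%, against 0.87% of all genes). The number lower was 0, also at unadjusted p under 0.05 or with DESeq2. All 29 had a positive change and the median was 0.45. Tph1, the serotonin synthesis enzyme of enterochromaffin cells, had 33.9, 32.8 and 24.1 CPM in NlecKO and 20.1, 12.5 and 12.8 CPM in Control crypts (adjusted p = 0.011). The granule genes Chgb (0.61 ± 0.14, adjusted p = 0.029) and Cpe (0.45 ± 0.11, adjusted p = 0.041) rose too, Cpe with overlap between the groups. Chga (0.59 ± 0.17, adjusted p = 0.067) and the somatostatin gene Sst (0.80 ± 0.23, adjusted p = 0.069) did not pass. Summed enteroendocrine markers stood at 1622, 1557 and 1697 CPM in NlecKO mice and 1368, 1013 and 1104 CPM in Control mice, without overlap. The list median was 0.14 between the males and 0.62 among the females. Of the 29 markers, 12 were called without Control mouse 1, 0 without Control mouse 2 or 3, 2 without NlecKO mouse 2 and 1 without NlecKO mouse 1 or 3.

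Of 33 enterocyte markers, 0 were called (2 higher at unadjusted p under 0.05, 0 with DESeq2). All 33 had a positive change and the median was 0.67. Their sums, 69742, 49732 and 47789 CPM in NlecKO mice and 48993, 30318 and 21310 CPM in Control mice, overlapped, and the list median was 0.38 between the males and 0.93 among the females. Ada, adenosine deaminase, had 537, 290 and 277 CPM in NlecKO and 191, 147 and 66.8 CPM in Control crypts and did not pass (1.45 ± 0.51, adjusted p = 0.15).

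Stem cell markers held 1 higher and 0 lower of 26 (2 higher and 8 lower at unadjusted p under 0.05, 1 each way with DESeq2), with a median of -0.27. The share called was 3.85%, against 2.48% of all tested genes. The higher gene was Tnfrsf21, a death receptor gene (0.60 ± 0.11, adjusted p = 0.011), and Smoc2 did not pass, at 53.7, 65.5 and 68.7 CPM in NlecKO against 89.9, 102 and 110 CPM in Control crypts (-0.69 ± 0.19, adjusted p = 0.058). Of 26 Wnt targets 0 were called (2 higher and 3 lower at unadjusted p under 0.05, 1 higher with DESeq2). Sp5 came nearest (0.78 ± 0.21, adjusted p = 0.057), and the median was -0.02. The stem cell list had 4 calls without Control mouse 1, 1 without NlecKO mouse 1 or 2 and 0 without the others.

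For 21 Paneth markers (0 called; 2 lower at unadjusted p under 0.05, 0 with DESeq2) the median was -0.40, with 0.00 between the males and -0.52 among the females. For 21 goblet markers (0 called; 1 higher and 1 lower at unadjusted p under 0.05, 1 higher with DESeq2) it was 0.07, with Muc13 at 0.49 ± 0.14 (adjusted p = 0.065), and the sums were 13935, 13290 and 14059 CPM in NlecKO mice and 12494, 11901 and 10964 CPM in Control mice. For 19 tuft markers (0 called; 2 higher at unadjusted p under 0.05, 0 with DESeq2) it was 0.39, with all 19 positive, and the sums were 293, 263 and 254 CPM in NlecKO mice and 194, 234 and 214 CPM in Control mice. The groups did not overlap in the goblet and tuft sums. Immune markers (0 of 30 called; 1 higher at unadjusted p under 0.05, 0 with DESeq2) had opposite medians by sex, 0.73 between the males and -0.49 among the females. Their sums were 765, 578 and 439 CPM in NlecKO mice and 429, 731 and 799 CPM in Control mice.

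Stromal markers were scarce, and their sum was higher in each NlecKO mouse than in each Control mouse. Col3a1 alone was called of 19 tested (7 higher and 0 lower at unadjusted p under 0.05, 3 higher with DESeq2), and Col1a1 did not pass (1.77 ± 0.51, adjusted p = 0.071). Summed, they stood at 99.5, 104 and 78.7 CPM in NlecKO mice and 58.8, 53.8 and 54.6 CPM in Control mice. The part of stromal cells in the rise of Col3a1 was not tested.

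Fetal and regeneration genes held 0 called of 25 on day 1 (8 higher and 0 lower at unadjusted p under 0.05, 5 higher with DESeq2), with a median of 0.73. The EGF family ligand genes Hbegf (0.88 ± 0.24, adjusted p = 0.055) and Areg (1.26 ± 0.42, adjusted p = 0.12) did not pass. The groups stood apart in both, as they did in this direction in 9.61% of all tested genes. Notch pathway genes (0 of 22 called; 3 higher and 1 lower at unadjusted p under 0.05, 1 higher with DESeq2) included Notch3 at 5.68, 10.8 and 13.9 CPM in NlecKO and 2.84, 3.56 and 3.64 CPM in Control crypts (1.60 ± 0.43, adjusted p = 0.058). Interferon response genes had 0 of 30 called (1 higher at unadjusted p under 0.05, 0 with DESeq2), with a median of 0.26.

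The genes called on day 1 were then read in mice of other groups. The spread of each gene was estimated over all 24 libraries, these mice included, so the calls of the comparisons are not independent of each other. On day 2, with Apc intact, 1214 genes were called higher (7.33% of those tested) and 1367 lower (8.26%) in NlecKO against Control. Y-linked genes marked NlecKO mice 1 and 2 and Control mouse 1 of day 2 as male and the other mice of these groups as female. Sex was thus balanced between the genotypes on day 1 and not on day 2, where it is partly confounded with genotype. Of the 144 genes higher on day 1, 116 were called higher again, 80.6% of the day 1 genes and 9.56% of those of day 2. Of the 267 lower genes, 164 were called lower again, 61.4% and 12% of the lists. The sign was the same for 98.6% of the higher and 95.9% of the lower genes, against 62.8% of all tested genes. The median of the higher genes was 1.04 on day 2, against 0.76 on day 1, and that of the lower genes -0.46, against -0.58. The opposite call was made in 1 gene, the chemokine gene Ccl27a (singled out for this after its values were seen), at 0.058, 0.296 and 0.0523 CPM in NlecKO and 1.26, 0.985 and 1.13 CPM in Control crypts on day 1 (-2.95 ± 0.67, adjusted p = 0.025), and called higher on day 2. Its day 1 values rest on few reads, and its difference between the days did not pass.

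Among crypts that had lost Apc, on day 1, 972 genes were called higher (5.87%) and 790 lower (4.77%) in the double knockout against ApccKO. Here 106 of the 144 genes were called higher again, 73.6% of them and 10.9% of the 972, and 190 of the 267 were called lower, 71.2% and 24.1% of the lists. The sign was the same for 94.4% of the higher and 97.8% of the lower genes, against 68.6% of all tested genes, and no gene (0) was called the opposite way. Cdkn1a changed by 1.30 on day 1, 2.01 on day 2 and 2.12 without Apc, and Eda2r by 1.72, 3.85 and 1.84. Mcm6 changed by -0.77, -0.56 and -0.65, and Rpl22l1 by -0.96, -1.04 and -0.99. Ccne1 was lower on day 1 with Apc intact and was not called in the other mice, with 0.04 on day 2 (adjusted p = 0.89) and -0.35 without Apc (adjusted p = 0.13).

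**Figure D5:**
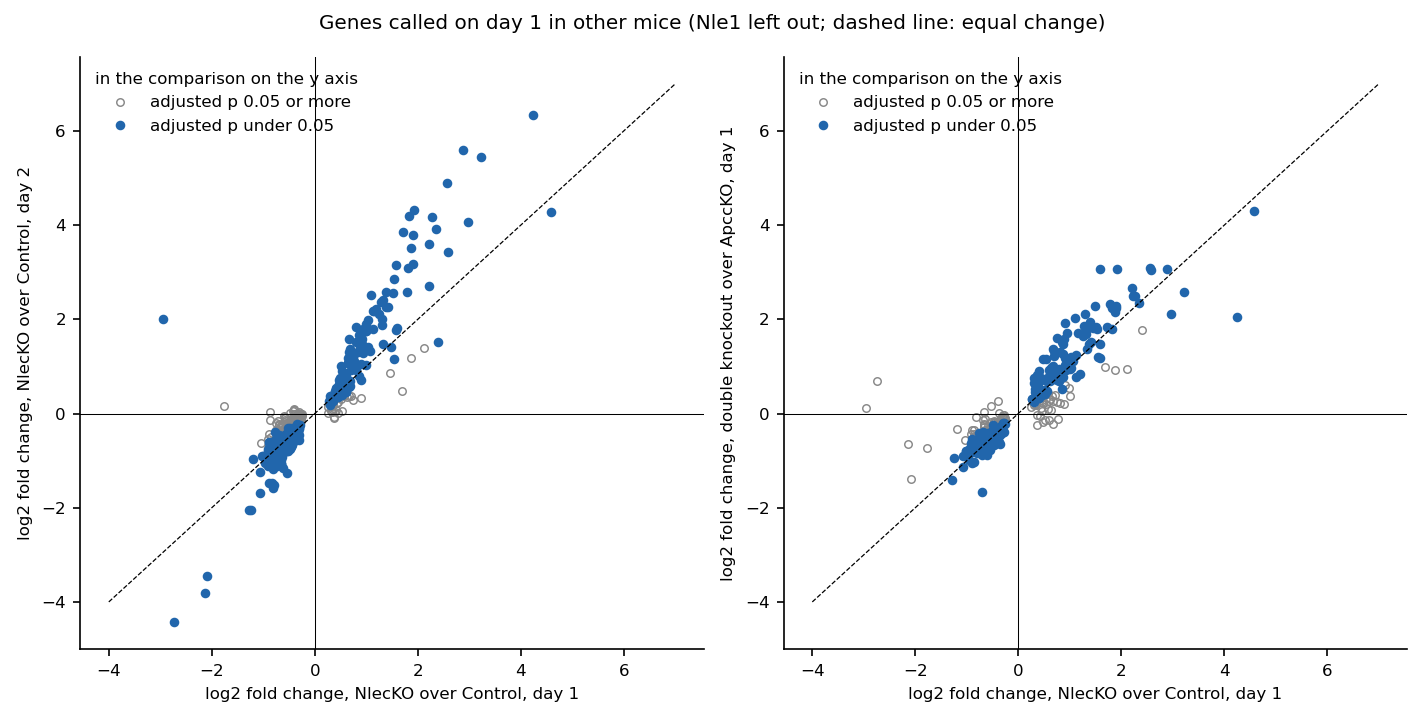
Log2 fold change of each gene called on day 1 (horizontal axis, Nle1 left out) against its log2 fold change in other mice: NlecKO over Control on day 2 (left) and double knockout over ApccKO on day 1 (right), filled where called there. Of the genes higher on day 1, 98.6% and 94.4% lie above 0, and of the lower ones 95.9% and 97.8% lie below it.

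The differences themselves were tested over all genes. Between day 2 and day 1, the NlecKO effect differed in 1 gene (0.00604% of those tested; 2151 at unadjusted p under 0.05, 212 with DESeq2), Erbb2, which encodes a receptor of the EGF family. Between Apc-lost and Apc-intact crypts on day 1 it differed in 2 genes (0.0121%; 1058 at unadjusted p under 0.05, 42 with DESeq2), Meg3 and Mxd4. The p53 targets with larger effects on day 2 did not pass this test, with differences for Eda2r of 2.13 ± 0.41 (adjusted p = 0.09), for Abcb1b of 2.37 ± 0.51 (adjusted p = 0.09) and for Ephx1 of 1.09 ± 0.22 (adjusted p = 0.09). For Cdkn1a it was 0.71 ± 0.29 (adjusted p = 0.3), and for Ccne1 0.90 ± 0.21 (adjusted p = 0.09). Large subunit assembly genes, with 1 of 42 higher on day 1, had 24 of 42 higher on day 2 and 1 of 42 in Apc-lost crypts. For the fetal and regeneration genes these counts were 0, 17 and 12 of 25. Over all tested genes 0.87% were called higher on day 1, 7.33% on day 2 and 5.87% in Apc-lost crypts. For none of the 42 assembly genes or the 25 fetal and regeneration genes did the difference between days or between Apc states pass.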

How the data were processed

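Polyadenylated RNA of 24 crypt libraries, 8 groups of 3 mice, was measured. The authors deposited estimated counts per gene, made with kallisto 0.43, with mm9, DESeq2 and DESeq also named in the submitters' processing notes; the annotation was not found in the labels or headers. Transcript estimates share reads between similar genes, so paralogs are uncertain. TPM values and normalised counts that the authors deposited were not used here. Estimated counts were rounded, and genes were kept by edgeR's count filter (minimum 10), which left 16552 of 37620. edgeR 4.0.16 (R 4.3.3, limma 3.58.1) with TMM scaling fitted 8 group means to all 24 libraries by robust quasi-likelihood, and contrasts were tested 2-sided with Benjamini-Hochberg adjustment over all tested genes at 0.05. The common biological coefficient of variation was 17.6% over 24 libraries and 16.7% over the 6 compared. It was 18.1% over the 12 Apc-intact and 17% over the 12 Apc-lost libraries. At least 99.92% of the counts of each library fell in tested genes, and depth of 18.54 to 21.49 M limits precision mainly for genes of a few CPM. Samples were grouped by their genotype and time labels. Alternatives were DESeq2 1.42.0, its size factors in edgeR, other filters, fewer libraries, terms for sex and replicate number, each mouse left out and, added after seeing the data, both males left out together.

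The members and gene lists were chosen with earlier results of these data known. Genes named are Nle1 and Apc, the 10 most raised and 10 most lowered called genes (mean of at least 5 CPM, groups apart, established symbol), up to 6 members of each list by p, every member of a list with at least 5 calls (a selection of these is printed), and genes whose effect differed between days or Apc states. Promoters came from RefSeq tables of GRCm38.p6, matched by symbol or gene ID. The files' build differs, so no other coordinates are given.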

Additional observations from a re-analysis of the deposited data

Results flagged for a closer look

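The NlecKO effect on Erbb2, a receptor tyrosine kinase gene of the EGF family, differed between day 2 and day 1 by -0.74 ± 0.11 on the log2 scale (edgeR interaction contrast, adjusted p = 0.041). On day 1 Erbb2 stood at 177, 182 and 173 CPM in NlecKO and 186, 155 and 154 CPM in Control crypts and did not pass (0.10 ± 0.08, adjusted p = 0.54), and on day 2 at 150, 137 and 121 CPM in NlecKO and 217, 211 and 207 CPM in Control crypts (-0.64, adjusted p = 3.9e-05).

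The effect of Nle1 loss on day 1 differed between Apc-lost and Apc-intact crypts in 2 genes. For Meg3, an imprinted long noncoding RNA, the difference was 2.70 ± 0.44 (adjusted p = 0.041). Meg3 had 2.15, 1.58 and 1.83 CPM in NlecKO and 1.15, 2.02 and 1.67 CPM in Control crypts, against 18.4, 14.2 and 26.2 CPM in double knockout and 2.22, 2.79 and 2.88 CPM in ApccKO crypts. For Mxd4, a gene of the Max dimerisation family, the difference was 0.83 ± 0.13 (adjusted p = 0.041). Mxd4 had 65.6, 56.9 and 53.9 CPM in NlecKO and 59, 65.9 and 58.2 CPM in Control crypts, against 51.3, 56.7 and 52.3 CPM in double knockout and 29.9, 29.8 and 33.6 CPM in ApccKO crypts.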

How the results depend on the processing

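For the 411 genes called on day 1 (144 higher, 267 lower), DESeq2 called 795 (350 and 445), no filter beyond 1 count 266 (94 and 172), the 12 Apc-intact libraries 9 (3 and 6), and the 6 libraries compared 21 (10 and 11). Leaving out single mice gave 31 to 1189 (19 to 453 higher, 12 to 736 lower). DESeq2 size factors, the filter of 2 CPM, the females and a term for sex gave 354, 409, 415 and 524. The females were chosen after seeing the data. Fits with fewer libraries also have fewer degrees of freedom for the spread, and the cause of the shifts was not tested. With only the libraries compared, day 2 had 265 calls and the Apc-lost comparison 582.

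The day difference, in 1 gene, was called in 212 by DESeq2, 211 with a term for sex, 13 in females and 4 with the filter of 2 CPM. It was called in 0 with DESeq2 size factors, with no filter or with only the libraries compared. Leaving out mice gave 0 to 203. Sex was not balanced between the genotypes on day 2. The Apc difference, in 2 genes, was called in 42 by DESeq2, 4 with a term for sex, 1 in females or with only the libraries compared, and 0 with DESeq2 size factors or the filter of 2 CPM; leaving out mice gave 0 to 3.

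With the 12 Apc-intact libraries, then with the 6 compared, calls were 0 and 2 in p53 arrest, 0 and 0 in p53 death, 1 and 2 in p53 metabolism, 0 and 0 in DNA replication, 1 and 1 in E2F and G1, 0 and 0 in mitosis, and 0 and 1 in recombination. Leaving out mice gave 5 to 9, 3 to 8, 2 to 6, 0 to 44, 1 to 10, 0 to 36 and 2 to 22 in these lists. E2F and G1 had 3 calls with DESeq2 size factors or with no filter, and mitosis 28 with DESeq2 and 7 in females. Of the 107 printed or listed genes that passed, Nle1, Cdkn1a, Ccng1, Zmat3, Sesn2, Phlda3, Bax, Eda2r, Ei24, Ephx1, Dcxr, Psrc1, E2f8, Bard1, Rpl22l1, Brca1, Mgmt and Rev1 passed without any single mouse. The largest adjusted p of Eda2r in these edgeR fits rounds to 0.05. In every alternative 4 genes passed (Nle1, Ephx1, E2f8 and Rpl22l1). Signs turned in genes that had not passed: Trp53 (0.04, range without single mice -0.22 to 0.04) and Sesn1 (-0.23, range -0.23 to 0.44) without NlecKO mouse 1, Meg3 (-0.12) in females, and Mxd4 (0.01, range -0.14 to 0.01) without Control mouse 2 or NlecKO mouse 3.

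Mice of the same replicate number deviated together by correlations of 0.227, 0.015 and 0.121, so the numbers were not taken as pairs. With a replicate block, 355 genes were called on day 1, 2 for the day difference and 0 for the Apc difference.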

Other observations

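The genes below lie on none of the lists and were chosen after their values were seen. They stand for no group, since no list or denominator was fixed for them. The cytokine gene Lif had 16.8, 20.9 and 23.3 CPM in NlecKO and 11.9, 10.2 and 11.2 CPM in Control crypts (0.88 ± 0.15, adjusted p = 0.0077). Gas6, a ligand of TAM receptors, had 109, 105 and 139 CPM in NlecKO and 70.6, 73.7 and 71.4 CPM in Control crypts (0.71 ± 0.15, adjusted p = 0.018), and its receptor gene Axl rose at a low level (1.58 ± 0.40, adjusted p = 0.042). Epha2, an ephrin receptor gene, rose as well (0.87 ± 0.21, adjusted p = 0.038). Of the 6 fits that left out 1 mouse, Lif and Gas6 passed in 3, Epha2 in 2 and Axl in 0. Fosl1, an AP-1 gene, had 0.406, 0.937 and 1.93 CPM in NlecKO against 0, 0.0547 and 0.0984 CPM in Control crypts, and the urokinase gene Plau 0.638, 0.887 and 1.46 CPM against 0.0547, 0.274 and 0.295 CPM in Control crypts, so both rest on few reads. Mgmt, which removes alkyl groups from guanine, had 6.84, 9.02 and 13.3 CPM in NlecKO and 2.24, 3.88 and 3.94 CPM in Control crypts (1.53 ± 0.26, adjusted p = 0.007), and Rev1, of translesion synthesis, rose by 0.76 ± 0.13 (adjusted p = 0.007).

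Among lower genes outside the lists, Hsp90b1, a chaperone gene of the endoplasmic reticulum, had 623, 696 and 705 CPM in NlecKO and 792, 990 and 1023 CPM in Control crypts (-0.47 ± 0.11, adjusted p = 0.031). Pdia4 (-0.48 ± 0.10, adjusted p = 0.018), Pdia6 (-0.48 ± 0.12, adjusted p = 0.034), Sdf2l1 (-0.55 ± 0.14, adjusted p = 0.047) and Canx (-0.33 ± 0.08, adjusted p = 0.03) were lower too, with no group overlap in Hsp90b1, Pdia4 and Canx. Pdia4 passed in 2 of the 6 fits that left out 1 mouse and the other 4 genes in 1, and Hspa5, the best known chaperone gene of that compartment, did not pass. Also lower were Mxd3 (-1.28 ± 0.22, adjusted p = 0.007), the centromere genes Cenpk (-0.91 ± 0.22, adjusted p = 0.036) and Cenph (-0.85 ± 0.17, adjusted p = 0.015), the histone chaperone gene Asf1b (-0.83 ± 0.21, adjusted p = 0.042) and Hmgb2 (-0.71 ± 0.16, adjusted p = 0.025). Fads1, a fatty acid desaturase gene, had 31.3, 34.5 and 35.9 CPM in NlecKO and 54.2, 62 and 69 CPM in Control crypts (-0.86 ± 0.21, adjusted p = 0.038).

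Rpl34 was listed at 134 CPM in NlecKO mouse 2, against 8.64 and 9.99 CPM in the other NlecKO mice and 9.4, 10.9 and 11.3 CPM in Control mice, and did not pass (2.27 ± 1.14, adjusted p = 0.32).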
